A study of Danio rerio with 6 samples.

Results

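Of 10 genes of epithelial oxidase and antimicrobial defence chosen by name (*duox*, *nox1*, *cyba*, *saa*, *hamp*, *nos2a*, *nos2b*, *pigr*, *alpi.1* and *pglyrp5*), 9 were matched by symbol to the 15419 genes of the count table and 6 were tested. *duox*, the dual oxidase of the gut epithelium, is not analysed here. Their RNA was measured by bulk RNA-seq in guts dissected from zebrafish larvae at 5 days post-fertilization (dpf). All larvae had been reared germ-free (GF), from surface-bleached eggs kept in sterile medium with antibiotics. The groups were 3 libraries of WT GF larvae and 3 of *il26-/-* GF larvae (labelled il26KO), whose *il26* gene had been mutated with CRISPR/Cas9, from clutchmate WT and mutant adults kept in separate tanks. Each library pooled 10 to 15 dissected guts, so no value belongs to a single larva or to a single cell type. Whether the pools of a group came from separate clutches is not stated, and p-values measure the spread between pools.

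These genes encode tools with which an epithelium meets microbes. Nox1 is an NADPH oxidase that releases superoxide, and p22phox, the product of *cyba*, is the membrane partner that Nox1 and the phagocyte oxidase need. *nos2a* and *nos2b* encode inducible nitric oxide synthases. Hepcidin (*hamp*) is a liver hormone that closes the iron exporter ferroportin and is also an antimicrobial peptide, and serum amyloid A (*saa*) is an acute phase protein that microbes are known to induce in the zebrafish gut. The polymeric immunoglobulin receptor (*pigr*) carries antibodies across epithelia, intestinal alkaline phosphatase (*alpi.1*) removes phosphate from bacterial lipopolysaccharide, and *pglyrp5* encodes a peptidoglycan recognition protein that cleaves bacterial cell wall. The comparison asks how loss of *il26* bears on these genes when no microbes are present.

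The libraries held between 7528412 and 38143258 counts. For *il26* itself every library held 0 counts, so the genotype labels could not be checked from it. Levels are given as CPM, each count relative to its library's total after TMM scaling. A library's floor of 3 counts lay between 0.0765 and 0.369 CPM, for counting error alone. Levels of different genes are not compared, since CPM is not corrected for gene length. Markers of the gut epithelium were all present (18 of 18), at a summed level of 48628 to 60182 CPM in WT GF and 51595 to 53976 CPM in *il26-/-* GF. Markers of other tissues were present as well, with 17 of 19 hepatocyte and 17 of 19 exocrine pancreas markers counted. In bulk samples, fewer cells of a type and less RNA per cell cannot be told apart.

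None of the members passed the test across all genes in *il26-/-* GF compared to WT GF (edgeR, quasi-likelihood fit, Benjamini-Hochberg adjustment, 0 of 6 with an adjusted p-value under 0.05). Over the whole table, 1 of 11062 genes tested passed, or 0.00904%. A nominal p-value, that is one before adjustment, was under 0.05 for 1 member, *alpi.1*, which was higher. Of all genes tested 589, or 5.32%, had one (3.06% higher and 2.27% lower in *il26-/-* GF). DESeq2 and limma-voom also gave 0 members at an adjusted p-value under 0.05. The CPM of the groups overlapped for all 6 members tested, where they did not overlap for 9.64% of genes tested (4.81% higher and 4.83% lower). *alpi.1*, *pigr* and *nos2b* passed the filter on low counts narrowly. A gene needed at least 0.467 CPM of the unscaled total in 3 libraries, which *alpi.1* reached in 1 WT GF and 3 *il26-/-* GF libraries and *pigr* and *nos2b* each in 1 WT GF and 2 *il26-/-* GF libraries. The members that passed are therefore not read as a group.

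**Figure D1:**
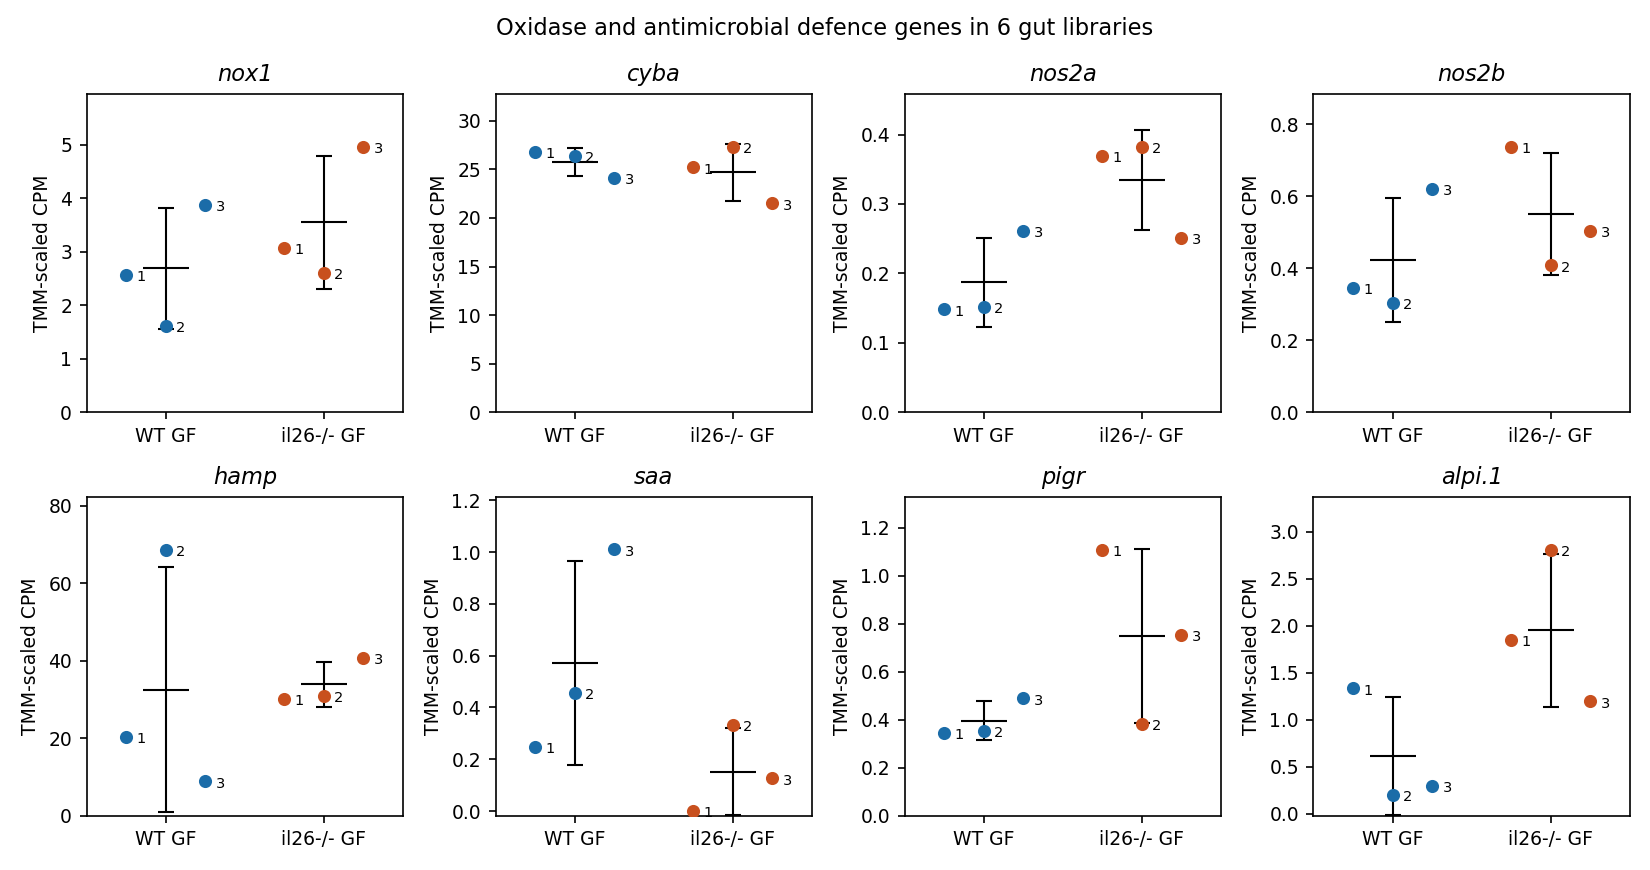
Each point is the TMM-scaled CPM of one library (vertical axes start at or just under 0 and differ between genes), labelled with its replicate number. Bars give the mean and SD of 3 libraries. *cyba* lies between 21.5 and 27.3 CPM in all 6 libraries, *hamp* spreads from 8.84 to 68.5 CPM within WT GF, and the lowest *il26-/-* GF library of *alpi.1* (1.19 CPM) lies under the highest WT GF library (1.33 CPM).

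**Figure D2:**
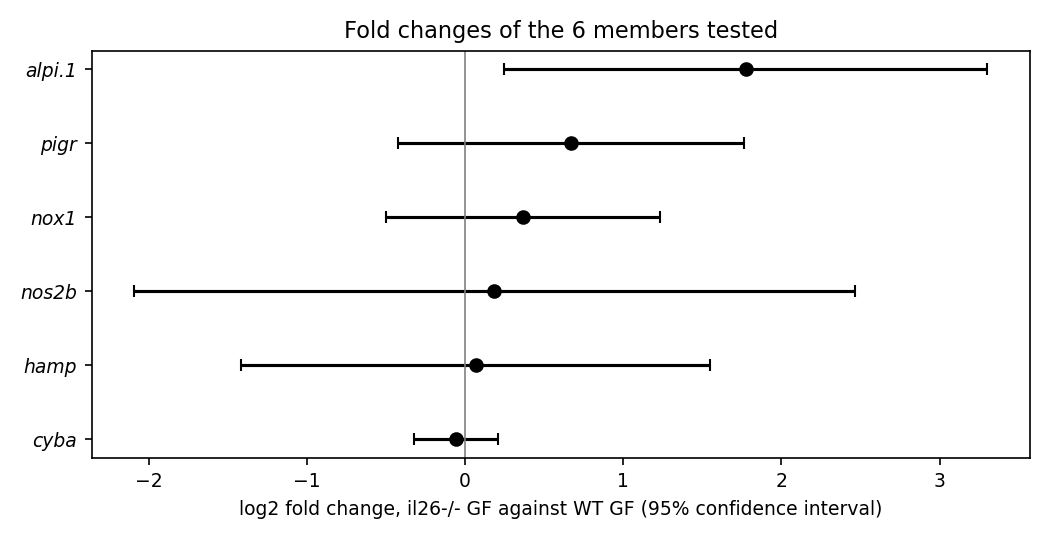
Log2 fold change of the 6 members tested, *il26-/-* GF against WT GF, as points with 95% confidence intervals. The intervals were derived from each fold change and its p-value in edgeR's quasi-likelihood fit. The interval of *cyba* is the narrowest (-0.32 to 0.21), that of *nos2b* (-2.09 to 2.46) is -0.82 to 1.23 with upper quartile scaling, and that of *alpi.1* (1.19-fold to 9.86-fold) leaves out no change before adjustment for multiple testing.

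Of the oxidase genes, *cyba* was the steadiest. It had 26.8, 26.4 and 24.1 CPM in WT GF replicates 1, 2 and 3 and 25.2, 27.3 and 21.5 CPM in *il26-/-* GF replicates 1, 2 and 3. The groups overlapped almost entirely. The mean was 25.8 ± 1.46 CPM (SD, n = 3) in WT GF and 24.7 ± 2.96 (SD, n = 3) in *il26-/-* GF. The log2 fold change was -0.059 (standard error, SE, 0.11, adjusted p = 1.00, edgeR), and its 95% confidence interval ran from -0.32 to 0.21, that is from 0.799-fold to 1.15-fold. *cyba* is thus the member for which the data set the narrowest limits. The sign of this small difference turned when libraries were scaled by total counts only (0.032) or when *il26-/-* GF replicate 3 was left out (0.040).

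*nox1* rested on fewer counts and varied more. WT GF libraries held 52, 32 and 119 counts and *il26-/-* GF libraries 25, 102 and 79, or 2.57, 1.62 and 3.88 CPM against 3.07, 2.60 and 4.97 CPM. In both groups replicate 3 was the highest. The groups overlapped, with a log2 fold change of 0.37 (SE 0.37, 95% confidence interval -0.50 to 1.23, adjusted p = 1.00, edgeR). Without WT GF replicate 3 the log2 fold change was 0.74 and without *il26-/-* GF replicate 3 it was 0.038, so it depended on single libraries. Per 1000 CPM of summed epithelial markers, *nox1* had 0.0426, 0.0284 and 0.0798 CPM in WT GF against 0.0596, 0.0482 and 0.0932 CPM in *il26-/-* GF, again with replicate 3 highest in each.

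Around these members, the NADPH oxidase list (catalytic subunits, cytosolic partners and Rac GTPases) had 12 genes tested, *nox1* and *cyba* included. Of these, 6 were higher and 6 lower in *il26-/-* GF. For 0 the nominal p-value was under 0.05, against 5.32% of all genes tested. The median log2 fold change of the list was -0.015, against -0.0011 over all genes tested. *cybb*, which encodes the catalytic subunit of the phagocyte oxidase, had 2.62, 2.23 and 2.09 CPM in WT GF and 2.71, 2.14 and 2.26 CPM in *il26-/-* GF. The cytosolic subunits *ncf1* and *ncf4* had log2 fold changes of -0.044 and -0.18, neither past the test. *noxo1a*, whose mammalian counterpart organises the Nox1 complex, had 3.06, 2.89 and 1.304 CPM in WT GF and 2.58, 3.55 and 1.70 CPM in *il26-/-* GF. *noxa1*, whose mammalian counterpart activates Nox1, had 0 counts in every library, and *noxo1b* had 19 counts in WT GF and 7 in *il26-/-* GF. The genes of this list with the highest CPM were the small GTPases *rac2*, *rac1b* and *rac1a*, with log2 fold changes of -0.073, 0.18 and 0.063. *cybb*, *noxo1a*, *noxo1b*, *noxa1*, *ncf1* and *ncf4* are named for their place in these complexes, after their values had been seen.

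On the list of enzymes that remove superoxide and peroxide, 7 of 17 genes tested were higher and 10 lower, 0 of them at a nominal p-value under 0.05. The peroxidase gene *gpx4a* had 2957 ± 215 CPM (SD, n = 3) in WT GF and 2553 ± 311 (SD, n = 3) in *il26-/-* GF. *prdx2*, a peroxiredoxin, and *cat*, catalase, had log2 fold changes of -0.040 and 0.057 with SEs of 0.096 and 0.15.

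Both inducible nitric oxide synthase genes were near the limit of detection. *nos2a* had 3, 3 and 8 counts in WT GF and 3, 15 and 4 counts in *il26-/-* GF, which is 0.148, 0.152 and 0.261 CPM against 0.369, 0.383 and 0.251 CPM. It did not pass the filter. The groups overlapped, since *il26-/-* GF replicate 3 lay just under WT GF replicate 3, and an exact permutation test over the libraries (two-sided) gave p = 0.2. With 3 libraries a group this exact test cannot go below p = 0.1. Counting error alone was wide, with an exact Poisson interval for the 3 counts of *il26-/-* GF replicate 1 from 0.0761 to 1.08 CPM. The spread between libraries of *nos2a* was no larger than counting error, with a variance of 0.540 times the Poisson value in WT GF and 0.286 times in *il26-/-* GF. With the filter lowered to 1 count in any library, the log2 fold change was 0.79 (95% confidence interval -0.34 to 1.91, adjusted p = 0.974, edgeR).

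*nos2b* had 7, 6 and 19 counts in WT GF and 6, 16 and 8 counts in *il26-/-* GF, or 0.345, 0.304 and 0.620 CPM against 0.738, 0.408 and 0.503 CPM. The groups overlapped. The log2 fold change was 0.19 (adjusted p = 1.00, edgeR). Its SE differed between settings, and not by scaling alone. This SE was derived from the p-value, which edgeR raises to a Poisson limit for some genes of low count. Whether the p-value of *nos2b* was raised in this way was not tested. The width of its interval is therefore not read as spread between pools. The 95% confidence interval ran from -2.09 to 2.46 as fitted and from -1.99 to 2.37 with scaling by DESeq2 size factors. It ran from -0.82 to 1.23 with upper quartile scaling, where the log2 fold change was 0.20. With TMM scaling kept and a filter of 1 count in any library, it ran from -0.83 to 1.24.

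On the list of nitric oxide synthesis and arginine use, 11 genes were tested, *nos2b* included, of which 2 had positive and 9 negative log2 fold changes. A nominal p-value under 0.05 was found for 1 in each direction, and an adjusted one for 0. Their median log2 fold change was -0.091. *ddah2*, of an enzyme family known to break down methylated arginines which inhibit nitric oxide synthase, had 8.78, 10.8 and 10.1 CPM in WT GF and 12.2, 13.1 and 12.1 CPM in *il26-/-* GF. Every *il26-/-* GF library lay above every WT GF library. The log2 fold change was 0.33 (SE 0.12, adjusted p = 0.840, edgeR). Its nominal p in edgeR was above 0.05 without WT GF replicate 1 (0.0798) and without *il26-/-* GF replicate 2 (0.0861). It was 0.0563 with epithelial marker scaling in edgeR and 0.0578 in DESeq2. *ass1*, argininosuccinate synthase, which makes the precursor of arginine, had 37.9, 53.2 and 87.7 CPM in WT GF and 31.2, 39.0 and 40.3 CPM in *il26-/-* GF, with a log2 fold change of -0.69 (SE 0.28, adjusted p = 0.906, edgeR). The groups overlapped through WT GF replicate 1. Without WT GF replicate 3 the log2 fold change was -0.30. Its nominal p in edgeR, 0.0435, was above 0.05 without that library (0.133) and without *il26-/-* GF replicates 1 (0.130), 2 (0.0767) or 3 (0.0736). It was also above 0.05 in edgeR with total counts (0.0692) or epithelial markers (0.0660) as the scale, and in limma-voom (0.0857). The neuronal synthase gene *nos1* had 29.5 ± 1.73 CPM (SD, n = 3) in WT GF and 26.9 ± 3.18 (SD, n = 3) in *il26-/-* GF, and *arg2* and *ddah1* had log2 fold changes of -0.078 and -0.15.

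*hamp* was the member whose level differed most between WT GF pools. It had 411, 1353 and 271 counts in WT GF and 245, 1211 and 647 counts in *il26-/-* GF. These are 20.3, 68.5 and 8.84 CPM against 30.1, 30.9 and 40.7 CPM. All 3 *il26-/-* GF libraries lay inside the WT GF range, which spanned 7.75-fold, against 1.35-fold in *il26-/-* GF. The means were 32.5 ± 31.7 CPM (SD, n = 3) in WT GF and 33.9 ± 5.87 (SD, n = 3) in *il26-/-* GF, and the log2 fold change was 0.068 (SE 0.63, 95% confidence interval -1.41 to 1.55, adjusted p = 1.00, edgeR). The variance of *hamp* between WT GF libraries was 779 times that of counting error. Its SD of log2 CPM over the 6 libraries was 0.99, at the 98.4th percentile of genes tested, where the median was 0.19.

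The direction for *hamp* changed with single libraries. Without WT GF replicate 2 the log2 fold change was 1.24 (adjusted p = 0.702, edgeR), with a nominal p in edgeR of 0.00825. Without WT GF replicate 3 it was -0.39 (adjusted p = 0.821, edgeR). It was also negative without WT GF replicate 1 (-0.17) and without *il26-/-* GF replicate 3 (-0.077).

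Hepatocyte markers varied between the same libraries. The summed level of the 17 markers counted, which include *apoa1b*, *apoa2* and *tfa*, was 14126, 38873 and 23898 CPM in WT GF and 20385, 25560 and 34694 CPM in *il26-/-* GF. WT GF replicate 2 was the highest library for both. Per 1000 CPM of hepatocyte markers, *hamp* had 1.44, 1.76 and 0.370 CPM in WT GF and 1.48, 1.21 and 1.17 CPM in *il26-/-* GF. In WT GF replicate 3 *hamp* was the lowest of all libraries while the markers were not. The markers were lowest in WT GF replicate 1, where *hamp* was not. With libraries scaled by these markers, a setting chosen after the data had been seen, the log2 fold change was 0.11 (adjusted p = 0.997, edgeR). The part of liver tissue in the spread of *hamp* was not tested.

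**Figure D3:**
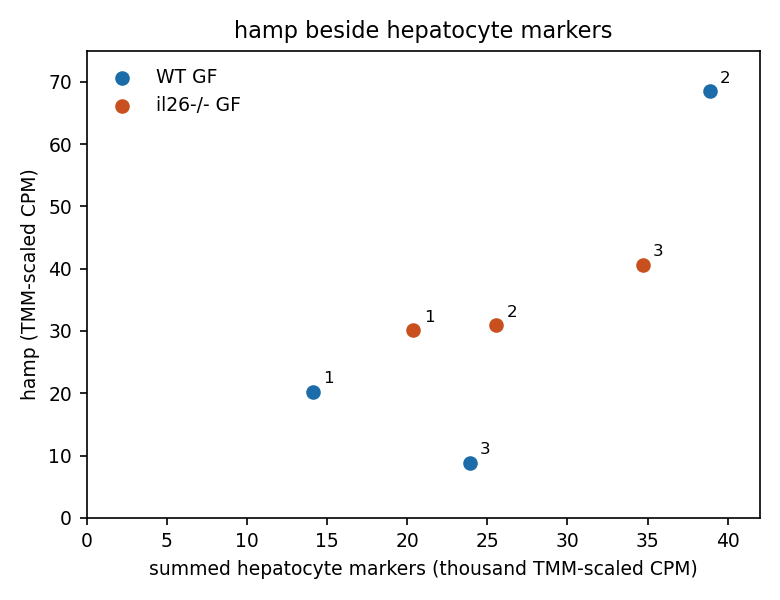
Each point is a library, with the summed level of 17 hepatocyte marker genes on the horizontal axis (in units of 1000 CPM) and the level of *hamp* on the vertical axis (CPM), labelled by replicate number. WT GF replicate 2 is highest on both axes, and WT GF replicate 3 holds the lowest *hamp* (8.84 CPM) at 23898 CPM of markers.

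The genes whose centred log2 CPM lay closest to that of *hamp* over the 6 libraries were *pah*, *rnd2* and *ebi3*, at a root mean square difference of 0.31, 0.38 and 0.41 on the log2 scale. *pah* encodes phenylalanine hydroxylase of the liver, and its levels were 36.6, 102 and 19.4 CPM in WT GF and 34.7, 58.6 and 56.9 CPM in *il26-/-* GF. As with *hamp*, its highest and lowest libraries were WT GF replicates 2 and 3. *pah* was chosen for its likeness to *hamp* over the same libraries, so this shared pattern is no separate result.

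*saa* was barely detected in these germ-free guts. It had 5, 9 and 31 counts in WT GF and 0, 13 and 2 counts in *il26-/-* GF, which is 0.247, 0.456 and 1.01 CPM against 0, 0.332 and 0.126 CPM. WT GF replicate 3 held the most, and *il26-/-* GF replicate 2 lay above WT GF replicate 1, so the groups overlapped. WT GF replicate 3 was also the highest library for some markers of skin and muscle. It had 226 CPM of *krtt1c19e* against 19.2 to 47.4 CPM in the others and 378 CPM of *pvalb1* against 65.8 to 149 CPM. For other muscle markers it was the lowest library, such as *tnnt3a* (15.3 CPM) and *casq2* (14.9 CPM). The summed muscle markers were higher in *il26-/-* GF replicate 2 (2956 CPM) than in WT GF replicate 3 (2068 CPM). *saa* did not pass the filter, and an exact permutation test (two-sided) gave p = 0.2. The count of 0 in *il26-/-* GF replicate 1, the shallowest library, allows a level of up to 0.369 CPM by the floor of 3 counts, which is more than WT GF replicate 1 had. With the filter lowered to 1 count in any library, the log2 fold change was -1.46 (95% confidence interval -3.12 to 0.21, adjusted p = 0.974, edgeR).

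Neutrophils also produce defence proteins. Of 7 neutrophil genes tested, 7 had negative log2 fold changes, against 5570 of 11062 over all genes tested. The changes ran from -1.22 (*lyz*, SE 0.64) to -0.035 (*il6r*, SE 0.17), and that of *lect2l* was -0.081 (SE 0.39). The signs of *il6r* and *lect2l* thus say little. For 2 of the 7 genes, *mpx* and *npsn*, nominal p-values were under 0.05 and adjusted p-values above it. This is 28.6%, against 5.32% of all genes tested. How *mpx* and *npsn* fared under the alternatives was not examined. The lysozyme gene *lyz*, named after its values were seen, had 2.22, 0.456 and 3.72 CPM in WT GF and 0.984, 0.867 and 1.01 CPM in *il26-/-* GF, so that it too was highest in WT GF replicate 3. The myeloperoxidase gene *mpx* had 3.45, 1.37 and 4.08 CPM in WT GF and 1.35, 1.86 and 1.19 CPM in *il26-/-* GF, with overlap. *npsn*, a neutrophil protease gene, had 4.39, 4.61 and 6.88 CPM in WT GF and 4.18, 3.44 and 2.89 CPM in *il26-/-* GF, without overlap. The summed level of the 9 neutrophil markers counted was 34.7 to 47.9 CPM in WT GF and 35.4 to 38.1 CPM in *il26-/-* GF. These sums rested mostly on *il6r* and *lect2l*, so they say little about *mpx*, *lyz* or *npsn*. *il6r* had 14.2 to 22.6 CPM in WT GF and 18.4 to 18.9 CPM in *il26-/-* GF, and *lect2l* 4.39 to 14.7 and 7.75 to 9.11 CPM. Macrophage markers summed to 22.5 to 26.7 CPM and 23.0 to 24.8 CPM, with *mpeg1.1*, *c1qa*, *c1qb* and *c1qc* listed at 0 in every library and 0 of 9 genes tested at a nominal p-value under 0.05. The part of these cells, and of skin and muscle, in the counts of *saa* was not tested.

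Of the wider list of acute phase and inflammatory genes, 16 were tested, *hamp* included. Of these, 8 were higher and 8 lower, with 0 at a nominal p-value under 0.05 and a median log2 fold change of 0.019. The liver products *tfa*, *fga* and *fgb* had log2 fold changes of 0.34, 0.070 and 0.11 with SEs of about 0.40, 0.41 and 0.41. The cytokine genes *il1b*, *tnfa*, *tnfb* and *il22* had 62, 36, 36 and 27 counts over all 6 libraries and did not pass the filter, *il6* had 1 count, and *il10* had 0.

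*pigr* had 7, 7 and 15 counts in WT GF and 9, 15 and 12 counts in *il26-/-* GF. These are 0.345, 0.354 and 0.489 CPM against 1.11, 0.383 and 0.754 CPM. The highest 2 libraries were *il26-/-* GF, and *il26-/-* GF replicate 2, the deepest library, lay inside the WT GF range. The log2 fold change was 0.67 (SE 0.47, 95% confidence interval -0.43 to 1.76, adjusted p = 1.00, edgeR). It ranged from 0.38 without *il26-/-* GF replicate 1 to 1.14 without *il26-/-* GF replicate 2, where the nominal p in edgeR was 0.0333. Related receptor genes had few counts as well and did not pass the filter. Over the 6 libraries *pigrl2.1* had 34 counts (12 in WT GF and 22 in *il26-/-* GF). *pigrl3.5* had 25 counts and went the other way (21 in WT GF and 4 in *il26-/-* GF).

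*alpi.1* had the largest fold change of the members. It had 27, 4 and 9 counts in WT GF and 15, 110 and 19 counts in *il26-/-* GF, which is 1.33, 0.203 and 0.294 CPM against 1.84, 2.81 and 1.19 CPM. The groups overlapped through WT GF replicate 1, which lay above *il26-/-* GF replicate 3, and the other 2 WT GF libraries lay below all others. The means were 0.609 ± 0.628 CPM (SD, n = 3) in WT GF and 1.95 ± 0.811 (SD, n = 3) in *il26-/-* GF. The fitted level was 3.42-fold that of WT GF (log2 fold change 1.77, SE 0.65, 95% confidence interval 1.19-fold to 9.86-fold), and it did not pass the test over all genes (adjusted p = 0.869, edgeR). The exact permutation test on the CPM (two-sided) gave p = 0.2.

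The direction for *alpi.1* was the same in all 14 alternatives that kept it, and in none of them did it pass the adjustment. Its nominal p in edgeR, 0.0282, was above 0.05 without WT GF replicates 2 (0.0640) or 3 (0.0780) and without *il26-/-* GF replicates 1 (0.0537) or 2 (0.143). The log2 fold change was 2.97 without WT GF replicate 1 (adjusted p = 0.200, edgeR), 1.31 without *il26-/-* GF replicate 2 (adjusted p = 0.998, edgeR), and 1.84 relative to epithelial markers (adjusted p = 0.773, edgeR). The SD of its log2 CPM over the 6 libraries was 1.32, at the 99.4th percentile of genes tested.

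The other alkaline phosphatase genes were measured at the same time. *alpi.2*, a paralog whose reads the authors' counting could have split with *alpi.1*, had 188, 148 and 84.6 CPM in WT GF and 112, 108 and 81.1 CPM in *il26-/-* GF. The fold change on the log2 scale was -0.48 (SE 0.28, adjusted p = 1.00, edgeR). *alp3* had 413, 332 and 257 CPM in WT GF and 253, 243 and 285 CPM in *il26-/-* GF, a log2 fold change of -0.36 (SE 0.17, adjusted p = 0.990, edgeR). Both genes thus had lower means in *il26-/-* GF, where the mean of *alpi.1* was higher, and neither passed the test. Single libraries went both ways. WT GF replicate 1 was the highest WT GF library for *alpi.1*, *alpi.2* and *alp3* alike. In contrast, *il26-/-* GF replicate 2 had the highest *alpi.1* and the lowest *alp3*. *alpl*, the tissue-nonspecific alkaline phosphatase, had 6.27, 5.57 and 5.54 CPM in WT GF and 9.22, 7.99 and 6.91 CPM in *il26-/-* GF without overlap. Its log2 fold change was 0.46 (SE 0.15, adjusted p = 0.722, edgeR).

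Within a library, *alpi.1* was 0.709%, 0.137% and 0.347% of the CPM of *alpi.2* in WT GF, against 1.65%, 2.59% and 1.47% in *il26-/-* GF. Each *il26-/-* GF library had a higher ratio than each WT GF library. This ratio was computed after the values had been seen, and its difference was not tested. How often ratios of other gene pairs separate the groups was not computed. *alpi.1* alone overlapped between the groups through WT GF replicate 1, which also had the highest *alpi.2*.

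**Figure D4:**
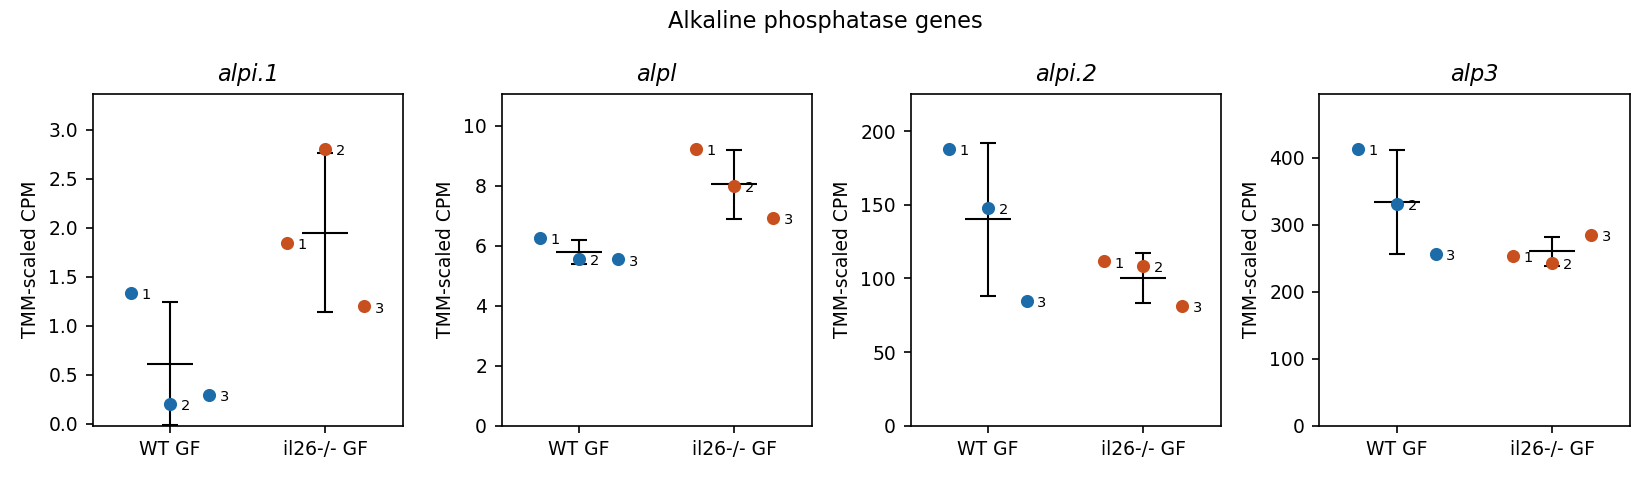
TMM-scaled CPM of 4 alkaline phosphatase genes in each library, labelled by replicate number, with the mean and SD of 3 libraries per group. The axes differ between genes. *alpl* does not overlap between the groups (at most 6.27 CPM in WT GF and at least 6.91 CPM in *il26-/-* GF), and the other 3 genes do.

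The genes closest to *alpi.1* over the 6 libraries were *lgals3bpa*, *apnl* and *trpm5*, at a root mean square difference of 0.21, 0.29 and 0.31 on the log2 scale. *lgals3bpa*, a galectin binding protein gene, had 1.38, 0.253 and 0.294 CPM in WT GF and 2.58, 2.398 and 1.38 CPM in *il26-/-* GF. *trpm5*, which encodes a cation channel of taste and chemosensory cells in mammals, had 1.18, 0.253 and 0.196 CPM in WT GF and 2.71, 2.73 and 1.07 CPM in *il26-/-* GF. In each of these genes WT GF replicate 1 stood above the other WT GF libraries, as it did for *alpi.1*. They were chosen for their likeness to *alpi.1* over the same libraries, so this shared pattern is no separate result. All of them had few counts.

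*pglyrp5* had 0 counts in all 6 libraries. By the floor of 3 counts, which covers counting error only, a 0 in the deepest library allows up to 0.0765 CPM. Whether annotation or counting left out reads of *pglyrp5* was not tested, and the table lists other genes at 0 whose tissue was present, such as *tnnc2* of muscle. Of its relatives, *pglyrp6* had 13.7, 20.5 and 13.7 CPM in WT GF and 30.4, 24.9 and 24.2 CPM in *il26-/-* GF, and every *il26-/-* GF library lay above every WT GF library. The mean was 15.9 ± 3.92 CPM (SD, n = 3) in WT GF and 26.5 ± 3.38 (SD, n = 3) in *il26-/-* GF, a 1.66-fold level (log2 fold change 0.73, SE 0.18, 95% confidence interval 0.30 to 1.16, adjusted p = 0.550, edgeR). It had the smallest unadjusted p-value on these lists, 0.00461 in edgeR, and no alternative took it past the adjustment, with DESeq2 nearest (adjusted p = 0.0796). *pglyrp2*, which is named after its values were seen, had 5.18, 17.3 and 9.65 CPM in WT GF and 9.96, 11.5 and 17.2 CPM in *il26-/-* GF.

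The 15 antimicrobial protein genes tested, *hamp* and *pglyrp6* among them, divided into 8 higher and 7 lower, with a nominal p-value under 0.05 for 1 in each direction and an adjusted one for 0. The median log2 fold change was 0.020. The beta-defensin gene *defbl1* was the lower one, with 1.97, 11.7 and 11.3 CPM in WT GF and 3.94, 3.39 and 2.26 CPM in *il26-/-* GF. Its groups overlapped, because WT GF replicate 1 lay below all *il26-/-* GF libraries. Its log2 fold change was -1.41 (SE 0.60, adjusted p = 0.927, edgeR), and -1.86 without WT GF replicate 1 (adjusted p = 0.175, edgeR). Leaving out any other single library took its nominal p in edgeR, 0.0484, above 0.05, to between 0.0787 and 0.142. The block (0.0541) and scaling by total counts (0.0524) did so as well, and limma-voom gave a log2 fold change of -0.89 with a nominal p of 0.245. The related *defbl2* and *defbl3* had 6 and 24 counts over the 6 libraries. The acidic chitinase genes *chia.2*, *chia.1* and *chia.3*, which had the highest CPM on this list, had log2 fold changes of -0.046, -0.12 and 0.050. *chia.2* also stands on the list of epithelial markers. Of mucus and goblet cell genes, only 3 were in the table. *muc13b*, a membrane mucin, had 493 ± 38.3 CPM (SD, n = 3) in WT GF and 489 ± 38.9 (SD, n = 3) in *il26-/-* GF, and *agr2* and *agr1*, disulfide isomerases of secretory cells, had log2 fold changes of 0.46 and -0.12.

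**Figure D5:**
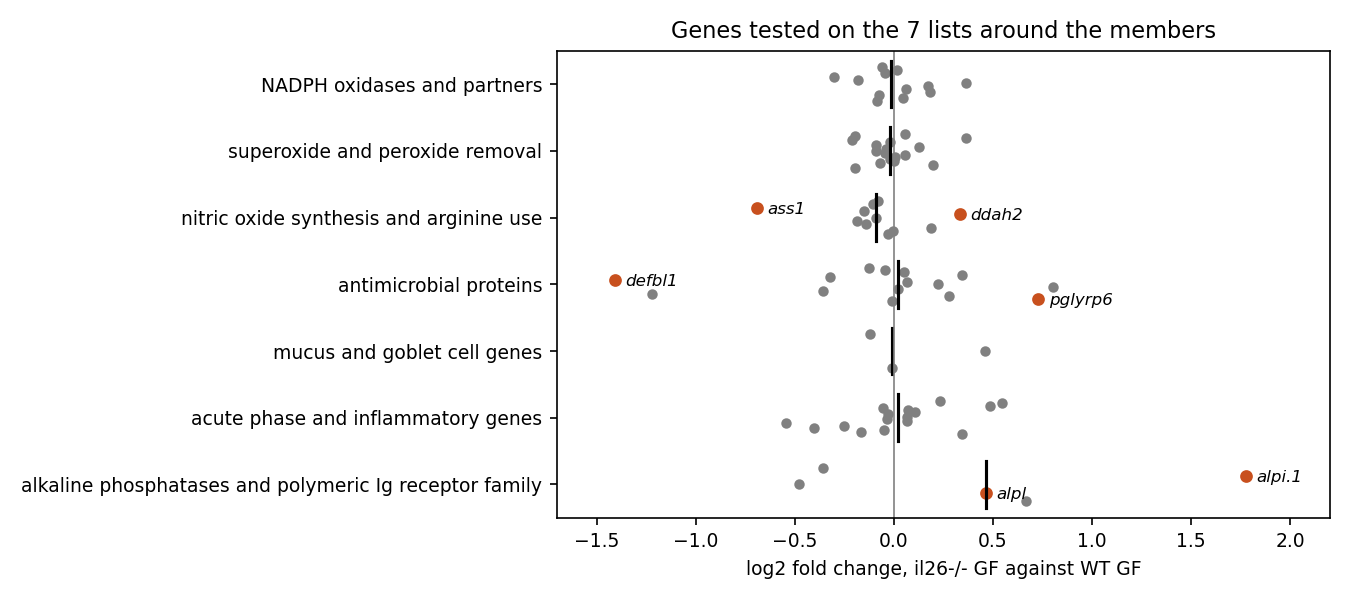
Log2 fold change of each gene tested, *il26-/-* GF against WT GF, on 7 lists of related genes. A black line marks the median of a list, and orange points, named, have a nominal p-value under 0.05 in edgeR. The 6 named genes lie on 3 of the lists, and none of them passed the adjustment over all genes.

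Over the 7 lists together, 78 genes were tested, of which 72 are not members. The members tested are thus counted here again. For 6 the nominal p-value was under 0.05, with 4 higher and 2 lower in *il26-/-* GF. This is 7.69%, against 5.32% of all genes tested. The groups did not overlap for 5 of the 78 (6.41%, against 9.64%). These were *rac1b*, *ddah2*, *pglyrp6* and *alpl*, higher, and *gucy1a1*, a subunit of the nitric oxide receptor guanylate cyclase named after its values were seen, lower. In all, 0 genes passed the adjustment. The median log2 fold change over the 78 genes was -0.025.

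Marker genes of tissues around the gut were compared as well. Of 14 skeletal muscle genes tested, 11 had positive and 3 negative log2 fold changes. At a nominal p-value under 0.05, 9 were higher and 0 lower in *il26-/-* GF. This is 64.3%, against 5.32% of all genes tested. The 3 with negative changes were *mylpfb* (-0.97), *tnni2a.4* (-0.79) and *pvalb1* (-0.63), each highest in WT GF replicate 3. The muscle markers summed to 1164 to 2068 CPM in WT GF and 1868 to 2956 CPM in *il26-/-* GF. Of them, *tnnc2* and *pvalb3* had 0 counts and *ckma* and *mylpfa* had 1 and 2 counts in all. Of 16 skin and periderm genes, 4 were higher and 2 lower at that threshold (37.5%). This list holds *scpp9*, *tgm1l4* and *upk1a* and was chosen with earlier results of these data known. Its share is therefore no separate result. Sums of the skin markers, 1685 to 2552 CPM and 2075 to 2322 CPM, rested mostly on *krt4* and *krt91*. Of 11 erythrocyte genes, 2 were higher and 1 lower (27.3%). Single skin genes stood far apart. *scpp9* had 0.493, 0.101 and 0 CPM in WT GF and 27.4, 14.3 and 13.8 CPM in *il26-/-* GF (adjusted p = 0.0609, edgeR). *tgm1l4* and *upk1a* did not overlap either, at 17.9-fold and 8.63-fold the WT GF level. *krtt1c19e* was at 0.243-fold, with its level in WT GF replicate 3 far above that in any other library, as given beside *saa*. These skin genes were named after their values were seen. Intestinal epithelium markers had 0 of 18 genes at a nominal p-value under 0.05. With libraries scaled to these markers, *pglyrp6* and *alpl* had log2 fold changes of 0.79 and 0.52, against 0.73 and 0.46 as fitted. The sums of these markers overlapped between the groups, so this scaling changed little and cannot show a part of other tissues. The part of muscle and surface tissue in *alpi.1*, *alpl* and *pglyrp6* was not tested.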

How the data were processed

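The authors prepared stranded mRNA libraries, sequenced paired-end reads of 100 bases, checked them with FastQC 0.11.8, aligned them to danRer11 and deposited raw counts per gene symbol. The aligner, counting tool, annotation and use of strand are not given in the sources used here, so reads of paralogs and overlapping genes may be shared. Columns were matched to libraries by library name, and groups and replicate numbers come from the titles.

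Genes were filtered with filterByExpr (at least 10 counts at the median depth, in 3 libraries), scaled by TMM and compared in a quasi-likelihood fit (edgeR 4.0.16 in R 4.3.3, no block), with p-values of the 11062 genes adjusted by Benjamini-Hochberg. Alternatives also used limma 3.58.1 and DESeq2 1.42.0. Standard errors were derived from the fold change and its p-value. For log2 CPM a prior count of 2 was used. The tests were tested on simulated data. Replicates of a group were not duplicates (chi-square of at least 11.1 per degree of freedom).

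The members and lists were chosen with earlier results of these data known. Named are all members, *il26*, genes on the related lists with a nominal p-value under 0.05, the 3 others with the highest CPM per list, up to 3 markers, and the 3 genes closest to the 2 most variable members, with exceptions stated. *il1b*, *tnfa*, *tnfb*, *il22*, *il6*, *il10*, *pigrl2.1*, *pigrl3.5*, *defbl2*, *defbl3* and some markers were also named outside this rule, after their values were seen. Of 160 genes on the related lists, 116 were in the table. Alternatives were other scalings, filters and tests, a replicate block and each library left out. Sequences were not used here, and 1 gene of the related lists is not reported here. Intervals on single counts cover counting error only.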

Additional observations from a re-analysis of the deposited data

How the results depend on the processing

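No member passed the adjustment over all genes under any alternative run for the members, and no gene on the related lists under the other scalings, filters and tests, the block or each library left out. Marker scaling was not run for the lists as a whole. The members with a nominal p-value under 0.05 numbered 0 with a filter of 10 counts in every library, which left out *alpi.1*, and 0 to 1 with a library left out (0 without WT GF replicate 3 or without *il26-/-* GF replicate 1). The 1 member was *hamp* without WT GF replicate 2 and *pigr* without *il26-/-* GF replicate 2. The cause was not tested. For *cyba* the log2 fold change turned to 0.032 with total counts as the scale and to 0.040 without *il26-/-* GF replicate 3, and with a library left out it ran from -0.15 to 0.040. For *hamp* it turned to -0.17, -0.39 and -0.077 without WT GF replicate 1, WT GF replicate 3 and *il26-/-* GF replicate 3, in a range from -0.39 to 1.24. Over the whole table, the count at an adjusted p-value under 0.05 was 1 as reported, 4 with upper quartile scaling, 2 with total counts, 4 with a filter of 1 count, 52 with DESeq2 and between 0 and 3 with a library left out. The count at a nominal p-value under 0.05 was 890 with limma-voom and 441 to 1133 with a library left out, the highest without WT GF replicate 3. Scaling by total counts moved the median of all genes by 0.084 on the log2 scale and gave 442 higher and 108 lower genes at a nominal p-value under 0.05, against 338 and 251. On the related lists, the 6 genes became between 3 and 11 with a library left out, 11 without WT GF replicate 2 and 3 without *il26-/-* GF replicate 1.

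With a block for the replicate number, 15 genes of the whole table and 0 members had an adjusted p-value under 0.05. Deviations from the group means correlated by 0.18, 0.096 and 0.30 for replicates 1, 2 and 3, and by -0.32 to 0.17 for unlike numbers. Only *il26-/-* GF replicate 2 correlated best with another number (0.17 with WT GF replicate 1). Whether equal numbers mark pairs is not given by the labels and was not settled here. The paper names no block, and the fit reported here has none. For *nox1* the block gave a log2 fold change of 0.43 with a nominal p in edgeR of 0.0645 (adjusted p = 0.740).

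Few counts limit *nos2a*, *nos2b*, *pigr*, *saa* and *pglyrp5*, which had between 0 and 65 counts each over the 6 libraries.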
